A study of Mus musculus with 12 samples.

Results

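Tumours taken at day 10 from lines labelled Mif KO were compared with day 10 tumours from their control lines. The comparison used the libraries that each hold a single line, and kept 21233 cells of the 116375 called to a hashtag in the series, from 8 of 45 hashtagged samples. A cell was kept with at least 300 detected genes, at most 15% mitochondrial UMIs (unique molecular identifiers, each counting 1 captured transcript), and a top hashtag of at least 20 counts and at least 3 times the second. The control tumours were 15A and 15B of SCC35 Mif KO control line 15, and 18A and 18B of control line 18. The Mif KO tumours were 19A and 19B of SCC35 Mif KO line 19, and 24A and 24B of line 24. The number is the line and the letter names a tumour within it. All groups share the SCC35 line as their origin and the same dissociation, hashtag staining, sort for propidium iodide-negative (live) cells and 10x 5′ capture. How the lines were edited, whether each line is 1 clone, and the host's strain, sex and age are not stated in the labels. The study's title places the series among experiments on melanoma rejection.

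Mif (macrophage migration inhibitory factor) is a small secreted cytokine that also has tautomerase activity. It binds Cd74, the invariant chain of MHC class II, which signals with Cd44, and it also binds the chemokine receptors Cxcr2, Cxcr4 and Ackr3. It is made by many cell types, including tumour cells, macrophages and lymphocytes, and in tumours it is known for acting on myeloid cells and on T cells.

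In each tumour, cells with at least 2 UMIs of Ptprc (the leukocyte antigen Cd45) and Tyrobp (an adaptor of myeloid and NK cell receptors) together were taken as immune-gate cells, and the others as non-immune cells. The gate gave 5411 immune-gate and 15822 non-immune cells. Median UMIs per cell ranged from 4319 to 8558.5 in control tumours and from 3382 to 9264 in KO tumours, and lines 18 and 24 were the shallower in each group. UMIs per tumour ranged from 6224116 to 27362084 in the non-immune sums and from 1115339 to 6833313 in the immune-gate sums. The gate is imperfect. T cell-like cells have few UMIs, and between 8 (15A) and 520 (24B) of them per tumour lay outside it. Clusters with no name from the markers held 13.9% to 29.2% of immune-gate cells per tumour. One of these clusters was led by Cryab and Nppb with 3.18 times its libraries' median UMIs, and another by Ogn and Sparcl1 with 77.6% of its cells from the line 24 library. Doublets of cells from 1 tumour carry 1 hashtag and remain. Passing barcodes whose top hashtag was under 3 times the second were 19.0% to 25.6% in the libraries of lines 15, 18 and 19 and 40.4% in that of line 24. Pairs of libraries shared 11 to 77 barcodes among the kept cells. Among non-immune cells the melanocytic markers were near 0, with 3 of 7 at 0 in every tumour and the summed level at most 22.3 CPM (a gene's UMIs scaled to a common total per tumour), so these cells are named by the gate and not called tumour cells.

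Each group has 2 lines, each line has its own library, and both tumours of a line share it. Line, library and knockout therefore cannot be told apart among the 8 tumours, and p-values cover the spread among these tumours of 4 lines. Whether the letters mark separate animals is not given, so part of that spread may be technical. A further pair of libraries that mix lines at day 10 is set beside them. The first holds 15C and 19C, and the second 18C and 24C, so each compares 1 control with 1 KO tumour inside a library, for the same 4 lines. Levels are CPM of a tumour's summed UMIs, differences are log2 fold changes of KO over control with their standard error (SE), and adjusted p-values come from edgeR's quasi-likelihood test with Benjamini-Hochberg adjustment over all genes tested, called under 0.05. When the mixed libraries were added with the library as a term, the group difference came from the mixed libraries alone. The spread then came from tumours within a library, mostly the A and B tumours of the same line. Those p-values therefore do not cover the spread between lines.

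Mif itself was lower in the non-immune cells of the KO tumours, by a smaller log2 fold change in immune-gate and T cell-like sums, and was not called in macrophage/monocyte-like cells. Mif (ENSMUSG00000033307; GRCm38, chromosome 10, 75859353 to 75860240, minus strand) stood at 2176, 2549, 2274 and 2212 CPM in non-immune cells of 15A, 15B, 18A and 18B. It stood at 78.5 and 89.7 CPM in 19A and 19B and at 497 and 432 CPM in 24A and 24B. The groups did not overlap, and line 24 kept more Mif than line 19. The log2 fold change was -3.08 (SE 0.59, adjusted p = 0.0213). The adjusted p was 0.0583 without 15A, 0.0579 without 15B and 0.0541 without 18B, with log2 fold changes of -3.11, -3.02 and -3.11. It was 0.0645 in limma voom with the line as a random block (log2 fold change -3.58). In the mixed libraries Mif was 1841 (15C) against 419.6 CPM (19C) and 2036 (18C) against 1186 CPM (24C), a log2 difference of smaller size (log2 fold change -1.44 and adjusted p = 0.0302 with a library term). The sources do not place the edit within the gene, so 5′ counts report transcript level and not whether protein is made. Several sources of the Mif found in KO tumours cannot be told apart. They are cells that escaped editing, transcript of an edited gene, control-line cells or RNA in a mixed library, and host cells outside the gate. Removing host-named clusters took the non-immune sum from 18503324 to 15749876 UMIs in 24B and from 27362084 to 26458335 in 19A. Without those clusters Mif was again called lower, and cells outside them still held Mif UMIs in KO tumours, with the shares given below. What part of the Mif the removed cells supply was not tested.

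Mif was also counted cell by cell. After each cell was thinned to 1000 UMIs, at least 1 Mif UMI was found in 82.9%, 87.6%, 81.7% and 82.5% of the non-immune cells of 15A, 15B, 18A and 18B that lay outside clusters named for host cell types. The share was 3.69% and 4.40% in 19A and 19B, and 33.1% and 30.2% in 24A and 24B. Before thinning it was 91.9% to 96.7% in control tumours and 32.9% to 70.7% in KO tumours. Macrophage/monocyte-like cells of the same tumours express Mif, no class that lacks it was at hand for a background share, and how far free RNA enters these shares was not tested.

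Macrophage/monocyte-like cells did not show this fall. Their Mif was 936, 1257, 1545 and 1247 CPM in control tumours and 1119, 1062, 1076 and 1114 CPM in KO tumours. All KO values lay inside the control range (log2 fold change -0.09, SE 0.15, adjusted p = 0.812). After thinning, 44.7% to 74.5% of these cells in control tumours and 46.2% to 65.7% in KO tumours had a Mif UMI. Immune-gate sums, which also hold the unnamed clusters, had lower Mif in the KO tumours (log2 fold change -1.25, adjusted p = 0.000807), and the fall was -0.57 (adjusted p = 0.0125) over clusters named for host cell types alone. In such sums, fewer cells of a type and less RNA per cell cannot be told apart. With the mixed libraries and the library as a term the immune-gate difference was -0.15 (adjusted p = 0.493). Of the 6 genes tested among Mif, its homologue Ddt and their receptors in non-immune cells, 2 fell, beside 4.05% of all genes tested, Mif and Ackr3 (an atypical chemokine receptor that binds Cxcl12 and Mif), at 27.0 to 32.9 CPM in control and 17.2 to 23.3 CPM in KO tumours (log2 fold change -0.63, adjusted p = 0.0322). Ddt was 65.4 to 76.4 against 57.5 to 68.6 CPM (adjusted p = 0.334). Without host-named clusters 5 of these genes were tested, Mif and Ackr3 again fell, and Cd74 rose, at 2.81 to 23 CPM in control and 29.3 to 131 CPM in KO tumours (2.80, adjusted p = 0.0447). Over all genes of that fit 4.71% were higher and 4.31% lower.

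**Figure D1:**
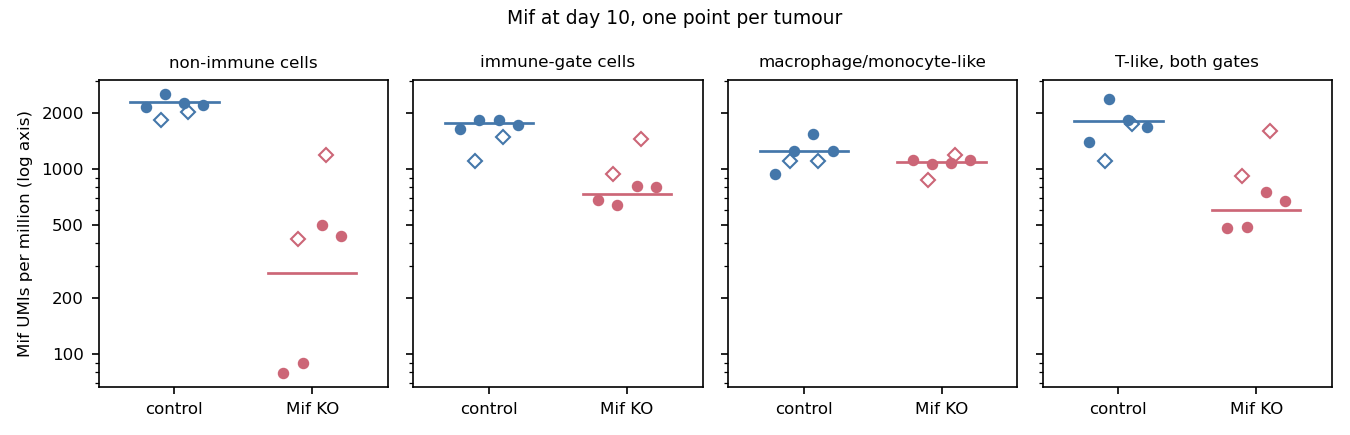
Mif in CPM (log axis) in 4 sums of cells at day 10, 1 point per tumour; filled points are the single-line libraries, open diamonds the mixed libraries, and horizontal lines the means of the filled points. The non-immune KO points lie at 78.5 to 497 against 2176 to 2549 in controls, while the macrophage/monocyte-like points overlap; the T cell-like panel includes 15A with 11 cells, which the fit left out.

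The non-immune cells differed in more than Mif. Of 12409 genes tested, 449 were higher (3.62% of those tested) and 502 lower (4.05%) in KO tumours. The count of 951 was 304, 341, 490, 325, 425 and 448 without 15A, 15B, 18A, 18B, 24A and 24B in turn. Treating the line as a random block in limma voom, where tumours of a line correlated at 0.72, left 7 genes. One sum per line, 2 lines against 2, left 0 (n = 2 per group). Without the host-named clusters 11656 genes were tested, of which 549 were higher (4.71%) and 502 lower (4.31%). With the mixed libraries and the library as a term, 270 genes passed.

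The rise with the lowest adjusted p was that of S100a16, a calcium-binding S100 protein. It stood at 14.0, 14.5, 10.3 and 12.4 CPM in 15A, 15B, 18A and 18B and at 100.3, 97.5, 161 and 157 CPM in 19A, 19B, 24A and 24B. No KO tumour came near the controls (log2 fold change 3.36, SE 0.20, adjusted p = 0.000287). The mixed libraries gave 16.5 and 16.8 CPM in control against 85.7 and 116 CPM in KO tumours. S100a16 was one of the 7 genes that passed with the line as a random block.

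Genes of several other kinds rose. Ogn (osteoglycin, a small matrix proteoglycan) rose from 19.7 to 53.1 CPM in controls to 97.3 to 106 CPM in line 19 and 377 to 404 CPM in line 24 (log2 fold change 2.89, adjusted p = 0.0198). Cbr2, a carbonyl reductase, was 15.7 to 29.9 against 85.6 to 115 CPM (2.08, adjusted p = 0.00156). The imprinted RNA H19 was 6.52 to 14.3 against 29.7 to 50.6 CPM (2.06, adjusted p = 0.00766). Tgfb3, a TGF-beta ligand, was 6.56 to 9.34 against 19.1 to 43.8 CPM, with line 19 the higher (1.92, adjusted p = 0.0156). Egln3, a prolyl hydroxylase induced by hypoxia, was 4.73 to 19.7 against 25.0 to 109 CPM (2.70, adjusted p = 0.0456). Cx3cl1, the membrane-bound chemokine whose receptor is Cx3cr1, was 20.9 to 29.5 CPM in controls, 44.4 and 47.8 CPM in line 19, and 153 and 174 CPM in line 24 (2.08, adjusted p = 0.0301). Line 24 was the higher KO line for Ogn and Cx3cl1, and line 19 for Tgfb3 and Egln3. Espn, Fosb and Prss23 complete the 10 named rises, with log2 fold changes of 2.78, 1.91 and 1.72.

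The named fall with the largest fold change was that of Sprr1a, a cornified envelope protein also induced by stress and injury. It stood at 43.0, 50.5, 68.1 and 75.6 CPM in the control tumours and at 0.987, 0.104, 2.25 and 2.65 CPM in the KO tumours (log2 fold change -5.40, SE 0.58, adjusted p = 0.00346). In the mixed libraries it was 26.1 and 51.3 CPM in the control and 16.4 and 39.1 CPM in the KO tumours, and the difference with the library as a term did not pass (-0.51, adjusted p = 0.337). Tspan6, a tetraspanin, was steadier. It stood at 33.3, 29.2, 30.7 and 33.3 CPM in control and 1.43, 2.54, 2.25 and 1.46 CPM in KO tumours (-4.03, SE 0.20, adjusted p = 0.000229), and at 29.5 and 36.6 against 6.08 and 11.1 CPM in the mixed libraries. It also passed with the line as a random block.

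Akr1c18, an aldo-keto reductase that metabolises progesterone and prostaglandins, was 48.5 to 119 CPM in control tumours, 7.57 and 4.25 CPM in line 19 and 0.321 and 0.162 CPM in line 24 (-4.53, adjusted p = 0.0213). Twist2, a mesenchymal transcription factor, was 30.1 to 75.7 against 5.84 to 9.76 CPM (-2.69, adjusted p = 0.00537). Tnn, the matrix glycoprotein tenascin N, was 90.2 to 194 against 6.11 to 19.6 CPM (-3.66, adjusted p = 0.00531). The other named falls were Cck, Col7a1, Ereg and Igfbp3, with log2 fold changes of -4.12, -3.07, -3.00 and -2.63. Host cell content differed as well. Cck was among the leading genes of the fibroblast-like cluster outside the gate, and Igfbp3 among those of the endothelial-like cluster. The shares of both classes are given below. The 8 fibroblast markers, none at 0 throughout, summed to 205 to 484 CPM in control and 75.1 to 149.9 CPM in KO non-immune cells. Without the host-named clusters Col7a1 had a log2 fold change of 0.06 (adjusted p = 0.943), and Cck, Ereg and Igfbp3 were too low to test, while Twist2 (-1.59, adjusted p = 0.00158) and Tnn (-3.02, adjusted p = 0.00158) still passed.

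Of the 20 named genes of the non-immune cells, 9 passed whichever tumour was left out: Cbr2, Col7a1, Espn, H19, S100a16, Sprr1a, Tnn, Tspan6 and Twist2. With the mixed libraries and the library as a term, 14 of the 20 passed. Fewer passed without a control line, 6 without line 15 and 10 without line 18, and 2 passed with the line as a random block, 0 with one sum per line and 0 in the mixed libraries alone.

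**Figure D2:**
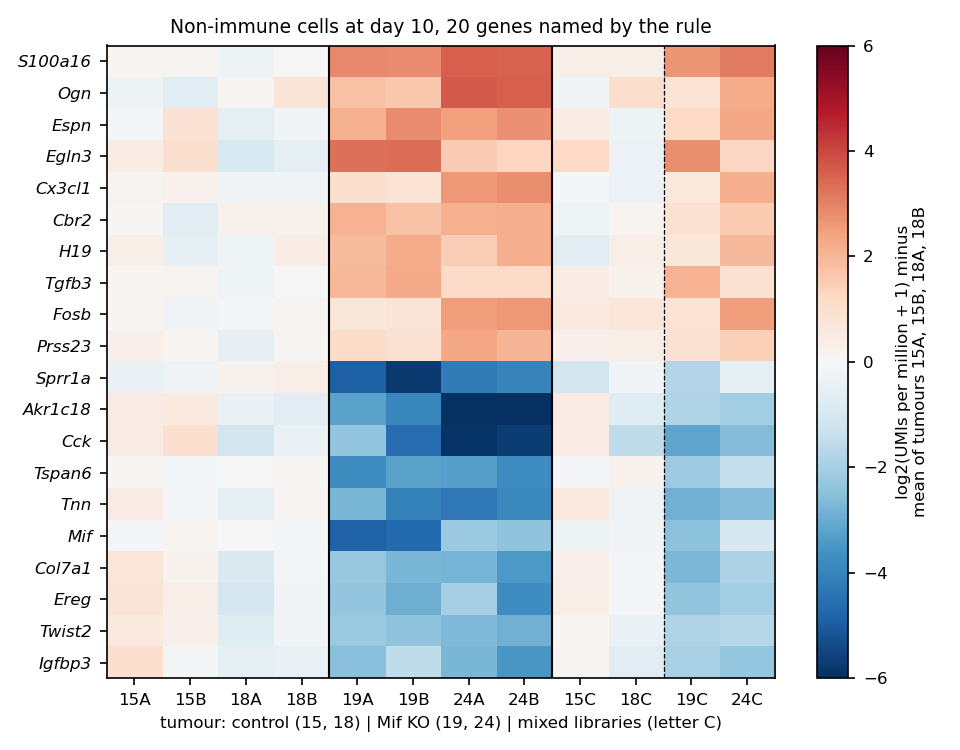
The 20 named genes of the non-immune cells (rows) in each tumour (columns); colour gives log2(CPM + 1) minus the mean of the 4 control tumours of the single-line libraries. The KO columns of the single-line libraries are uniformly red above and blue below, which follows from choosing genes whose groups did not overlap in these tumours. The mixed-library KO tumours 19C and 24C, which had no part in the choice, show the same signs, in paler shades for Sprr1a and Tspan6.

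Pathway lists were set beside a median log2 fold change of 0.01 over all genes tested. Of 17 genes of TGF-beta ligands and response, 5 rose and 1 fell (median 0.36), beside 3.62% higher and 4.05% lower over all genes, and the rises were between 1 (without 15A or 18B) and 6 (without 19A) when a tumour was left out. Among them Skil, a feedback inhibitor of Smad signalling, was 11.9 to 13.3 against 26.8 to 47.3 CPM (1.51, adjusted p = 0.0042). Inhba, which encodes a subunit of activin A, was 28.3 to 46.5 against 11 to 19.0 CPM (-1.10, adjusted p = 0.0317), but it was -0.12 (adjusted p = 0.682) without host-named clusters. Ccn2 was at most 1.82 CPM in controls and 2.49 to 8.19 CPM in KO tumours (1.75, adjusted p = 0.0463), but lower in the KO tumour of both mixed libraries (-0.54 with the library as a term), and it was too low to test without host-named clusters. In that fit 4 of 16 genes of the list rose, Skil and Tgfb3 among them, and 0 fell, beside 4.71% higher and 4.31% lower over all its genes.

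Of 9 Wnt pathway readouts and inhibitors, 4 fell and 0 rose (median -1.80), beside 4.05% lower and 3.62% higher over all genes. None passed without 15A, 15B or 24A, 1 without 18B or 24B and 2 without 18A. All 4 encode secreted inhibitors or, in the case of Dkk3, a relative of one. Notum, a secreted lipase that inactivates Wnt ligands, was 86.2, 72.5, 72.7 and 71.4 CPM in control tumours and 32.4, 28.3, 10.1 and 10.5 CPM in KO tumours (-1.80, adjusted p = 0.0339). Dkk2, a Wnt receptor antagonist, was 34.5 to 74.7 against 2.41 to 15.2 CPM (-2.50, adjusted p = 0.0365). Sfrp1 and Dkk3 had log2 fold changes of -3.56 and -2.23, and neither was tested once host-named clusters were removed, where Notum (-1.85) and Dkk2 (-2.57) still passed.

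Of 10 prostaglandin genes, 3 fell and 1 rose (median -0.56), beside 4.05% and 3.62% over all genes, though 0 passed without 15A or 15B. Ptgs2 (cyclooxygenase-2, which starts prostaglandin synthesis) was 94.0 to 129.6 CPM in control and 29.2 to 72.6 CPM in KO tumours (-1.27, adjusted p = 0.0214). Ptges, the prostaglandin E synthase, was 9.69 to 21.1 against 2.05 to 6.02 CPM (-1.66, adjusted p = 0.04), but without host-named clusters it was -0.05 (adjusted p = 0.936), where Ptgs2 still passed (-1.19, adjusted p = 0.0295). The receptor Ptger4 rose (1.12, adjusted p = 0.0435), at 0.682 to 1.33 against 1.84 to 2.56 CPM. Without host-named clusters no prostaglandin gene rose, and Ptger4 turned to -0.49 when the mixed libraries and a library term were added to that fit.

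Of 26 glycolysis and hypoxia genes 3 rose, Egln3, Car9 and Pdk1, and 0 fell, with a median of -0.13, beside 3.62% higher and 4.05% lower over all genes, and at most 1 passed whichever tumour was left out. Car9, a carbonic anhydrase, was 69.6 to 191 against 299.6 to 337 CPM (1.37, adjusted p = 0.0322). Of 17 collagens, 2 rose (Col11a1, Col5a2) and 3 fell (Col7a1, Col5a3, Col16a1), beside 3.62% and 4.05% over all genes, with a median of -0.40. Without host-named clusters 5 rose and 2 fell (median 0.13), beside 4.71% higher and 4.31% lower over all genes of that fit. Col16a1 was 65.6 to 76.9 against 33.2 to 39.2 CPM (-0.93, adjusted p = 0.0015). Of 11 small proteoglycans and mineralised matrix genes, Dmp1 and Ogn rose and Lum and Dcn fell (median 0.50, beside the same shares over all genes). Without host-named clusters 9 were tested, of which 3 rose (Dmp1, Ogn and Bgn) and 0 fell, with a median of 1.48, beside 4.71% and 4.31% over all genes. Dmp1, a matrix protein of bone and dentin, was 1.19 to 2.72 against 12.6 to 27.0 CPM (3.19, adjusted p = 0.0016). Lum and Dcn, proteoglycans made by fibroblasts, had log2 fold changes of -1.99 and -1.93, and Dcn was at 0.021 without host-named clusters and with the mixed libraries and a library term.

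Lists of antigen presentation, interferon response and proliferation held no called gene in non-immune cells, where 3.62% of all genes were higher and 4.05% lower, so few calls would be found in lists of this size. Of 18 MHC class I presentation genes, 0 passed (median 0.33), of 29 interferon response genes 0 (median 0.03) and of 26 cell cycle genes 0 (median -0.16). Without host-named clusters 1 cell cycle gene fell, Mcm6 (-0.41, adjusted p = 0.0338), beside 4.31% lower over all genes, and none of the other lists' genes passed. For H2-K1, Ccl2 and Csf2, picked after their values were seen, the KO lines stood apart from each other. Of these only H2-K1 is on the lists above, and the line difference was not tested over the lists. H2-K1, a classical class I heavy chain, was 898, 1101, 1278 and 743 CPM in control tumours, 979 and 915 CPM in line 19, and 2508 and 2386 CPM in line 24 (0.76, adjusted p = 0.184). Ccl2, the monocyte chemoattractant, was 246 to 415 CPM in controls, 37.1 and 32.9 CPM in line 19 and 904 and 742 CPM in line 24 (0.30, adjusted p = 0.864). Line 19 lay below every control and line 24 above every control, and 19C (45.4 CPM) and 24C (651 CPM) repeated the split. Csf2 (GM-CSF) was 0.874 to 3.71 CPM in controls, 1.43 and 0.726 CPM in line 19 and 26.0 and 23.3 CPM in line 24 (adjusted p = 0.176).

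The share of immune cells was lower on average in the KO tumours, but the groups overlapped and the difference passed the test only under some settings. Immune-gate cells were 37.2%, 34.4%, 30% and 27.9% of cells in 15A, 15B, 18A and 18B, and 6.88%, 14.7%, 27.8% and 30% in 19A, 19B, 24A and 24B. The low values were those of line 19. The difference in means was -12.5 percentage points (exact permutation test, two-sided, p = 0.0571, n = 4 against 4, where the smallest possible p is 0.0286). It was -15.9 points (exact permutation p = 0.0286) without 24B, -18.3 points (exact permutation p = 0.0286) with a stricter hashtag call, and -12.5 points (exact permutation p = 0.00433) with the mixed libraries added. After each cell was thinned to 1000 UMIs, so that the gate was read at 1 depth, it was -8.01 points (exact permutation p = 0.171). Thinning left out the cells with fewer UMIs, 41 to 285 per control tumour and 41 to 517 per KO tumour. The stricter hashtag call kept a larger part of the immune-gate cells than of the non-immune cells in every tumour. Of the non-immune cells it kept 484 of 696, 488 of 707, 1930 of 2454 and 1199 of 1834 in control tumours. In KO tumours it kept 2170 of 2597, 1512 of 1920, 1136 of 1360 and 3483 of 4254 of them. Immune-gate cells kept were 400 of 412 in 15A, 668 of 709 in 18B and 1593 of 1821 in 24B. How far this enters the difference was not tested.

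Osteoclast-like cells were nearly absent from the KO tumours. Osteoclasts are multinucleated macrophage relatives that resorb bone, and the name rests on Acp5, Ctsk, Atp6v0d2, Ocstamp, Dcstamp and Mmp9, all 6 of which marked the clusters. These cells made up 19.9% (82 cells), 22.2% (82 cells), 1.42% (15 cells) and 19.7% (140 cells) of immune-gate cells in 15A, 15B, 18A and 18B. In 19A and 19B they made up 0.521% (1 cell) and 1.21% (4 cells), and in 24A and 24B 0 cells were found, which allows a share of up to 0.574% and 0.165%. The groups did not overlap, and 18A was far below the other controls. The difference was -15.4 points (exact permutation p = 0.0286, the smallest possible, and 0.114 after Benjamini-Hochberg adjustment over 8 cell classes). In the mixed libraries the shares were 20.8% (15C) against 0.282% (19C) and 11.2% (18C) against 0% (24C). With these added the exact permutation p was 0.00216, again the smallest possible, adjusted to 0.00866. That test also counts tumours of a line as independent and ignores the pairing inside the mixed libraries, and 1 mean per line cannot pass. Cells were also counted without clustering. After thinning, 14.9%, 15.8%, 1.03% and 14.6% of immune-gate cells had at least 2 Ctsk UMIs in control tumours, and 0%, 0.324%, 0% and 0% in KO tumours. In T cell-like cells, which should lack Ctsk, the share was 0% in every tumour but 18B, where it was 3.70% (1 of 27 cells). At least 2 Acp5 UMIs were found in 20.5%, 21.8%, 1.44% and 17.2% of immune-gate cells in control tumours and in 1.09%, 1.62%, 2.27% and 2.32% in KO tumours, where 18A lay among the KO tumours and the groups overlapped.

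T cell-like cells made up more of the immune-gate cells in each KO tumour than in any control tumour. They were 0.728%, 5.14%, 5.03% and 2.12% of immune-gate cells in control tumours and 17.2%, 22.4%, 16.6% and 16.9% in KO tumours. The difference was 15.0 points (exact permutation p = 0.0286, adjusted 0.114 over 8 classes), and 17.9 points with the mixed libraries (adjusted exact permutation p = 0.00866). Tumours of a line are again counted as independent in these tests. As a share of all cells, with those outside the gate included, they were 0.993%, 4.74%, 5.30% and 1.77% in control and 3.48%, 11.4%, 13.5% and 13.6% in KO tumours, which overlapped (exact permutation p = 0.0857). The low KO value was that of 19A. Cells with a Cd3d, Cd3e or Cd3g UMI after thinning were 0.843%, 3.94%, 3.26% and 0.796% of all cells in control and 2.73%, 8.43%, 8.18% and 9.43% in KO tumours, beside 0% to 3.40% of macrophage/monocyte-like cells, the highest in 24B.

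In these 8 tumours no class passed after adjustment, osteoclast-like and T cell-like cells included. The smallest possible exact permutation p, 0.0286, passes after adjustment only where several classes reach it together. A class that separated the groups alone could therefore not pass, and the lack of a call is not evidence of no difference. NK cell-like cells were 0.485% to 3.24% of immune-gate cells in control and 2.08% to 11.2% in KO tumours (exact permutation p = 0.0571, adjusted 0.152). Macrophage/monocyte-like cells were 48.1% to 58.1% against 37.8% to 58.3% (exact permutation p = 0.2, adjusted 0.294). Fibroblast-like cells were 5.60%, 3.90%, 2.79% and 3.93% of all cells in control and 1.94%, 2.04%, 1.86% and 1.22% in KO tumours, without overlap (exact permutation p = 0.0286, adjusted 0.157 over 11 classes of all cells). In the mixed libraries that gap was narrower, 4.36% and 3.52% against 3.31% and 3.29%. Endothelial-like cells were 0.428% to 1.11% against 0.115% to 0.711% (exact permutation p = 0.0857).

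**Figure D3:**
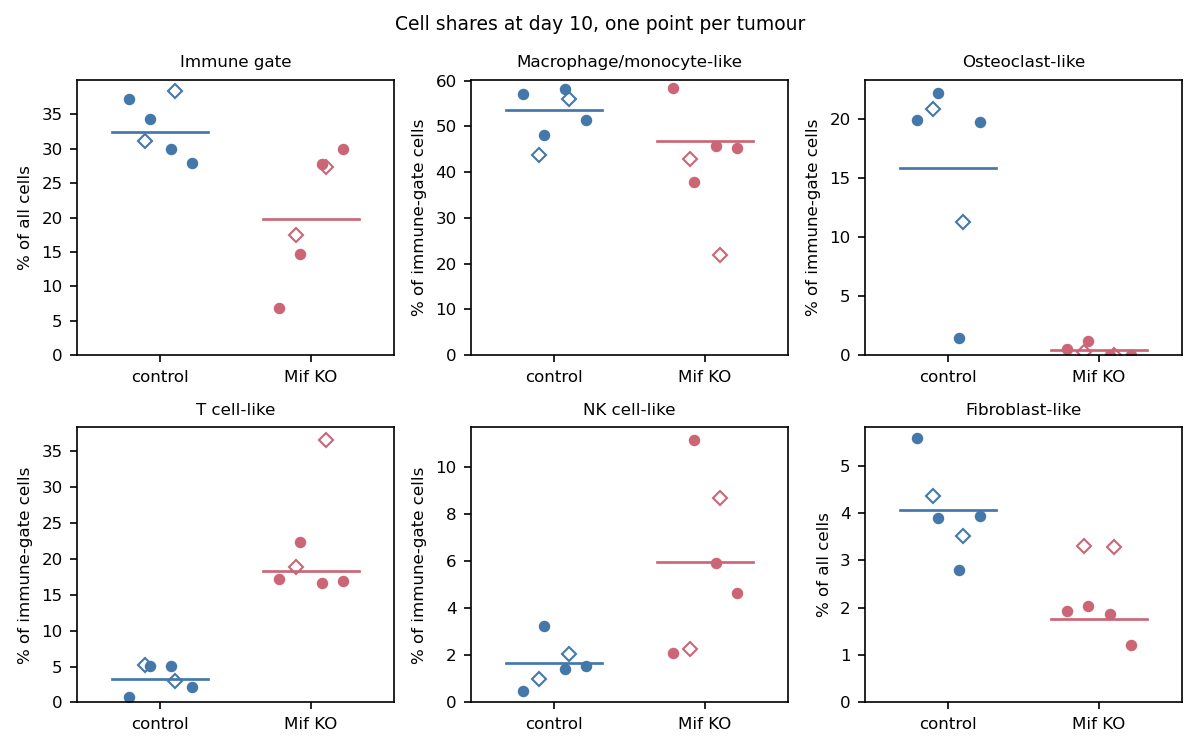
Shares of cells in percent at day 10, 1 point per tumour; filled points are the single-line libraries, open diamonds the mixed libraries, and horizontal lines the means of the filled points. Osteoclast-like and T cell-like shares do not overlap between the groups in either kind of library, with 18A as the low control in the osteoclast-like panel, while macrophage/monocyte-like shares overlap.

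In the summed counts of immune-gate cells, 683 of 10744 genes tested were higher in KO tumours (6.36%) and 525 lower (4.89%). The count of 1208 was 579, 684, 602, 418 and 361 without 15A, 15B, 18B, 24A and 24B, and 2081 without 18A. With the mixed libraries and the library as a term, 321 genes passed. Of the 20 named genes of these cells, 19 passed whichever tumour was left out, and Gzmf did not without 15A (adjusted p = 0.051). With a line left out, 7 passed without KO line 24, 11 without control line 15, 19 without KO line 19 and 20 without control line 18. With the library term 12 passed and 1, Akr1c18, turned direction, and 6 passed with one sum per line. Sums over the gate mix changes in which cells are present with changes inside them.

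The osteoclast genes fell together. Their list includes every marker that named the osteoclast-like cells, and these sums hold those cells, so the fall is not independent of their share. Of the 10 tested, 8 were lower and 0 higher, beside 4.89% lower and 6.36% higher over all genes, with a median log2 fold change of -2.36 beside 0.00 over all genes, and between 5 of 11 tested (without 24B) and 11 of 11 (without 18A) passed when a tumour was left out. With the line as a random block in limma voom 1 of the 10 passed, Ctsk (adjusted p = 0.031), while Mmp9 (0.0712), Acp5 (0.0678) and Atp6v0d2 (0.172), each an adjusted p, did not. Ctsk (cathepsin K, the protease that degrades bone collagen) stood at 1849, 2016, 149.6 and 1393 CPM in control and 20.6, 27.0, 1.65 and 4.24 CPM in KO tumours. All KO tumours lay below the lowest control, 18A (-6.89, SE 0.94, adjusted p = 0.00341). Mmp9, a gelatinase, was 936, 1146, 61.5 and 590.4 against 3.59, 8.80, 9.35 and 7.61 CPM (-6.47, adjusted p = 0.00289). Acp5, the tartrate-resistant acid phosphatase, was 2233, 2498, 165 and 1431 against 57.4, 137, 97.3 and 124 CPM (-3.90, adjusted p = 0.00649). Here 18A lay just above the highest KO tumour. Atp6v0d2 (a proton pump subunit of osteoclasts), Slc9b2 and Slc37a2 fell as well, with log2 fold changes of -6, -5.87 and -3.28. Mt3, a metallothionein that led the osteoclast-like clusters, was 270.5, 286, 15.6 and 273 against 0.585 to 2.75 CPM (-7.53, adjusted p = 0.00352). Oscar, an osteoclast-associated receptor, had 248 UMIs in control and 0 in KO tumours, at least 70.3-fold lower with a floor of 3 counts over the KO group.

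A pair of regulators of osteoclast formation on the list, picked after their values were seen, also fell in these sums. Neither was called in macrophage/monocyte-like cells, and how far the loss of osteoclast-like cells enters their fall was not tested. Tnfrsf11a (Rank, the receptor for the osteoclast differentiation factor Rankl) was 21.4 to 75.7 against 9.80 to 19.7 CPM (-1.89, adjusted p = 0.0146). Nfatc1, the transcription factor that Rank signalling induces, was 49.7 to 199.8 against 24.2 to 45.2 CPM (-1.92, adjusted p = 0.0109). The fusion genes Ocstamp and Dcstamp had log2 fold changes of -2.48 (adjusted p = 0.0318) and -2.25 (adjusted p = 0.027). With the mixed libraries and the library as a term, Ctsk (-5.90, adjusted p = 0.00962), Mmp9 (-5.35, adjusted p = 0.0138) and Acp5 (-4.45, adjusted p = 0.024) passed.

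T-cell genes rose with the T cell-like share. The 9 T-cell markers summed to 22.7 to 131 CPM in control and 361 to 391 CPM in KO immune-gate cells. Cd3e, a chain of the T-cell receptor complex, stood at 3.42, 6.59, 19.8 and 4.54 CPM in control and 78.9, 70.4, 69.8 and 66.7 CPM in KO tumours (3.01, SE 0.40, adjusted p = 0.00304). The KO tumours were close to each other, and 18A was the highest control. In the mixed libraries Cd3e was 13.1 against 58.9 CPM and 5.06 against 102 CPM (3.24, adjusted p = 0.0152). Cd3d, Cd3g and Cd7, the last found on T and NK cells, had log2 fold changes of 2.75, 2.77 and 3.64.

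Of 10 costimulatory and regulatory T-cell genes, 9 rose and 0 fell (median 2.20), beside 6.36% higher and 4.89% lower over all genes of these sums, and 7 to 10 rose when a tumour was left out. Among them Cd27 was 0.934 to 5.12 against 6.28 to 22.9 CPM (2.91, adjusted p = 0.00436) and Cd28 1.82 to 5.49 against 16.1 to 26.4 CPM (2.38, adjusted p = 0.00336). Tnfrsf4 (the costimulatory receptor Ox40) was 4.67 to 13.9 against 37.2 to 54.5 CPM (2.23, adjusted p = 0.00352). Of 13 genes listed as T-cell inhibitory receptors and regulators such as Tox, 9 rose and 1 fell (median 0.97, beside the same shares), with 3 rises without 24B and 4 without 24A or 18B. Ctla4 was 1.87 to 7.32 against 8.07 to 32.3 CPM (2.41, adjusted p = 0.00675) and Tox 0 to 1.46 against 4.11 to 5.56 CPM (2.54, adjusted p = 0.0112). Rgs16, a regulator of G-protein signalling, was the one that fell (-1.52), and it was higher in the KO tumours of the mixed libraries (0.35 with the library as a term).

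Of 14 granzyme and effector genes, 4 rose and 2 fell (median 0.30), beside 6.36% higher and 4.89% lower over all immune-gate genes. Nkg7, a granule protein of cytotoxic cells, was 9.65, 53.4, 72.6 and 26.6 against 129, 244, 176 and 198 CPM (2.23, adjusted p = 0.0131). The falls were those of Gzmg and Gzmf, which belong to a cluster of near-identical granzyme genes that reads may not separate. Gzmg was 23.4 to 48.9 CPM in control tumours, 5.38 and 0.587 CPM in line 19 and 0 in line 24 (-5.64, adjusted p = 0.00234). In the mixed libraries it was 0.266 against 2.57 CPM and 18.1 against 3.61 CPM, and neither gene passed with the library as a term (-1.41 for Gzmg and -1.90 for Gzmf). Gzmb, the main apoptosis-inducing granzyme, was 13.7 to 99.2 against 38.6 to 161 CPM (adjusted p = 0.282).

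Of 11 MHC class II genes 6 rose and 0 fell (median 1.21), beside 6.36% higher and 4.89% lower over all genes, but 0 passed without 24B, 1 without each of 15A, 15B, 18B and 24A, 9 without 18A, and 0 with the mixed libraries and the library as a term. Cd74, which is also the Mif receptor, was 3163, 2718, 6212 and 2024 CPM in control and 5487, 5345, 9259 and 9585 CPM in KO tumours. Tumour 18A lay above both line 19 tumours (1.11, adjusted p = 0.0483). Ccl5, a chemokine of T and NK cells, was 72.0 to 329 against 368 to 727 CPM (1.89, adjusted p = 0.0176), and it was among 6 of 22 chemokines and colony stimulating factors that rose, with 1, Ccl9, that fell. Only 2 of these chemokines rose without 15A, 15B, 24A or 24B. Il12b, the p40 subunit of interleukins 12 and 23, was 1.89 to 4.36 against 8.97 to 13.8 CPM (2.23, adjusted p = 0.00304).

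Genes of the non-immune cells were also called in the immune-gate sums. S100a16, Ogn, Serpinf1 and Mmp3 rose (3.05, 4.19, 2.75 and 5.58) and Akr1c18 fell (-4.32), though Mmp3 was 0 in 15A and 15B. Their part in the other immune-gate differences was not tested. Over clusters named for host cell types, 19 of the 20 named genes could be tested and all 19 passed. The 19 include S100a16, Ogn, Serpinf1 and Akr1c18, so these clusters also carry such genes and the count does not separate their part. Akr1c18 in the mixed libraries was 33.0 and 24.5 CPM in the control tumours and 34.6 and 34.4 CPM in the KO tumours, so it was not lower in the latter.

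**Figure D4:**
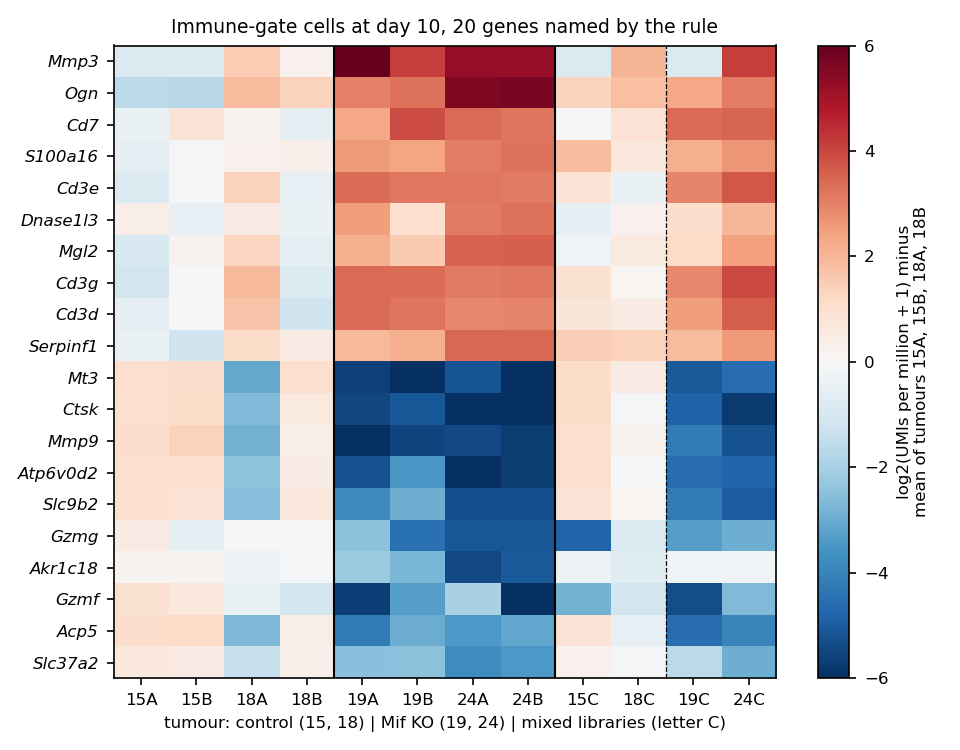
The 20 named genes of the immune-gate cells (rows) in each tumour (columns); colour gives log2(CPM + 1) minus the mean of the 4 control tumours of the single-line libraries. Tumour 18A is blue for the osteoclast genes Ctsk, Mmp9, Acp5 and Mt3 and red for Cd3e, Cd3g and Cd3d, between the other controls and the KO tumours, and Akr1c18 shows no difference in the mixed libraries.

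Inside macrophage/monocyte-like cells the differences were fewer. Of 6618 genes, 101 were higher (1.53%) and 96 lower (1.45%). The count of 197 rested on lines 24 and 15, with 0 calls without KO line 24 and 4 without control line 15. It was 0 without 24B, 17 without 24A, and 24, 105, 576, 77 and 345 without 15A, 15B, 18A, 18B and 19B, and none of the 12 named genes passed in every such fit. These classes also drew on different clusters. A cluster led by Mgl2 and Itgax had 76.8% of its cells from the line 24 library, and one led by Inhba and Nos2 had 54.6% from the line 18 library.

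Cx3cr1, the receptor for Cx3cl1, stood at 16.7, 27.5, 14.3 and 38.8 CPM in control and 77.4, 65.1, 162 and 135 CPM in KO tumours (2.38, SE 0.34, adjusted p = 0.00765). The groups did not overlap, which the rule for named genes requires, and the mixed libraries gave 20.7 and 29.4 against 145 and 149.9 CPM (2.67, adjusted p = 0.00599). Mgl2 (Cd301b, a galactose-binding lectin of macrophages and dendritic cells) was 13.5, 44.9, 80.0 and 19.4 against 155, 126, 400.3 and 404 CPM (2.87, adjusted p = 0.0177). Its value in 19C, 26.0 CPM, was close to that of 15C in the same library, 23.2 CPM. The neighbouring genes Tmem176a and Tmem176b, which encode ion channels of antigen-presenting cells, had log2 fold changes of 2.13 and 2.05. Axl, a receptor for dying cells, was 39.6 to 66.6 against 86.8 to 234 CPM (1.78, adjusted p = 0.0133). Nr4a3 was the remaining named rise.

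Pdpn (podoplanin, a membrane mucin of inflammatory macrophages) fell, from 82.2, 97.0, 185 and 143 CPM in control to 37.5, 30.4, 8.82 and 10.5 CPM in KO tumours (-2.70, SE 0.41, adjusted p = 0.00765). The mixed libraries gave 116 and 108 against 12.4 and 14.2 CPM (-2.97, adjusted p = 0.00126). Vim, the intermediate filament vimentin, was 6317 to 7499 against 1493 to 4311 CPM (-1.32, adjusted p = 0.0254), and Ecm1, Capn2 and Dpep2 fell by 1.45, 1.24 and 1.59 on the log2 scale. Fabp5, a lipid chaperone, was 1086 to 1733 against 376 to 892 CPM (-1.24, adjusted p = 0.0223), the 1 gene of 15 lipid-associated macrophage genes that passed, beside 1.45% lower over all genes. Pkm (pyruvate kinase) was the 1 of 24 glycolysis and hypoxia genes, at 1403 to 1919 against 728 to 1068 CPM (-0.76, adjusted p = 0.0217). Of 7 osteoclast genes tested here 2 fell, Ctsk and Atp6v0d2, beside 1.45% lower over all genes. Ctsk was 34.9 to 423 against 1.76 to 47.8 CPM, with overlap between the groups (-4.28, adjusted p = 0.0254). Atp6v0d2 had a log2 fold change of -4.17 (adjusted p = 0.00765), and Acp5 overlapped as well and did not pass (adjusted p = 0.599). Ctsk stood at 5198 CPM in the osteoclast-like cells of control tumours, which were nearly absent from KO tumours, and their part in these values was not tested.

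MHC class II genes in these cells were all on the higher side without passing. All 9 tested had a positive log2 fold change (median 1.10), and 0 were called, beside 1.53% higher over all genes, against 9 without 18A and 3 without 19B. H2-Aa was 1761, 1596, 4750.3 and 1294 CPM in control and 4537, 3478, 6429 and 6411 CPM in KO tumours (adjusted p = 0.077). Tumour 18A lay within the KO range. Interferon response genes had a median of -0.25 with 0 of 28 called (1.53% higher and 1.45% lower over all genes), and the monocyte marker Ly6c2 spread from 27.5 (19A) to 668 CPM (15A) with no separation of the groups (adjusted p = 0.743).

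**Figure D5:**
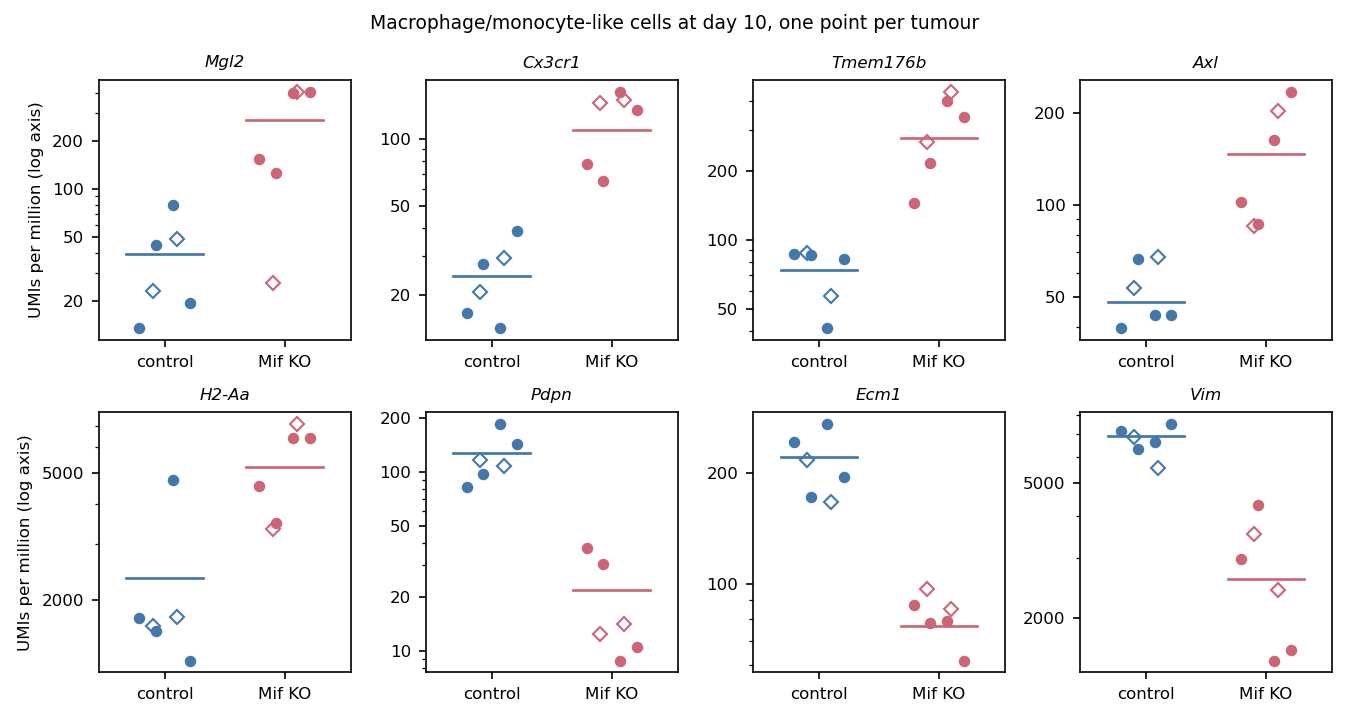
Levels of 8 genes in macrophage/monocyte-like cells in CPM (log axes), 1 point per tumour; filled points are the single-line libraries, open diamonds the mixed libraries, and horizontal lines the means of the filled points. Cx3cr1, Pdpn and Ecm1 separate the groups in both kinds of library, the mixed KO tumour 19C falls among the controls for Mgl2, and control 18A lies among the KO tumours for H2-Aa.

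T cell-like cells allowed a weaker test. Inside the gate only 18A among the controls had at least 20 such cells, so nothing is read from that comparison. With the T cell-like cells of both gates, 3 control tumours (51 cells in 15B, 186 in 18A and 45 in 18B) stood against 4 KO tumours (97 to 828 cells), and 19 of 6928 genes passed (0.274%). Among those that passed were genes that also differed in non-immune cells, such as S100a16 (3.62), Ogn (3.85), Qdpr (-1.61) and Mif itself (-1.66, adjusted p = 0.00461), and how far RNA of the line's cells enters these sums was not tested. Others were Nr4a3, a nuclear receptor induced by T-cell receptor signals (42.2 to 56.5 against 107 to 160.0 CPM; 1.68, adjusted p = 0.0111), and P2ry10, a receptor of lymphocytes (20.3 to 28.7 against 62.3 to 87.3 CPM; 1.71, adjusted p = 0.03). In 15A, whose 11 T cell-like cells were not fitted, these genes stood at 110.3 and 73.6 CPM, both within the KO range. Nr4a3 was also called higher in macrophage/monocyte-like cells, so its rise was not particular to T cell-like cells. Granzymes did not pass. Gzmc was 678, 70.9 and 1442 CPM in 15B, 18A and 18B and 17.8 to 173 CPM in KO tumours (-3.27, adjusted p = 0.121), and Gzmb was 623 to 892 against 231 to 662 CPM (-0.77, adjusted p = 0.287). Of 12 genes tested from the list of inhibitory receptors and regulators, Nr4a3 alone passed, and Pdcd1 (the receptor Pd-1) was 57.4 to 129.9 against 56.8 to 133 CPM (0.02, adjusted p = 0.999).

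Day 10 was then set beside the other days in the same libraries, with 4 tumours per group and day except 3 KO tumours at day 6, where line 24 has 1. By edgeR's quasi-likelihood test no gene was called for a KO difference at day 10 departing from the mean of those at days 6 and 16, with 0 of 13901 genes called in non-immune cells (427 at an unadjusted p under 0.05, 0 by DESeq2) and 0 of 11875 in immune-gate cells (511 at an unadjusted p under 0.05, 1 by DESeq2). In non-immune cells the log2 fold change of Mif was -3.65 at day 6, -3.09 at day 10 and -3.07 at day 16. That of Ctsk in immune-gate cells was -7.52, -6.87 and -4.66, and that of Cd3e 1.75 (adjusted p = 0.106), 3.01 and 3.45. Mgl2 had 0.64, 2.78 and 0.19, a departure of 2.37 (SE 0.65) that did not pass over all genes (adjusted p = 0.611).

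The day 0 samples of the same lines gave a further comparison, with 3 control samples, 1 of them of line 18, and 4 KO samples. Of 12973 genes, 2599 (20%) had a KO difference at day 10 that departed from that of the same lines at day 0, and 37 with one sum per line. Mif and S100a16 were not among them. Mif had a log2 fold change of -4.57 at day 0 and -3.07 at day 10 (departure adjusted p = 0.254), and S100a16 3.93 and 3.37 (adjusted p = 0.286). H19 reversed, from -1.69 (adjusted p = 0.0218) at day 0 to 2.06 at day 10 (departure 3.75, adjusted p = 0.00145). Col7a1 had -0.45 at day 0 and -3.07 at day 10 (departure adjusted p = 0.0157) and Twist2 -1.19 and -2.68 (adjusted p = 0.0174). The day 10 sums hold host fibroblasts, and without host-named clusters the day 10 values were 0.06 for Col7a1 and -1.59 for Twist2; the departure was not tested without those clusters.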

How the data were processed

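For each library the authors deposited unnormalised counts of UMIs, by gene and by hashtag, made with Cell Ranger 6.0.0 on mm10 per the submitters' processing notes. No header or label records a doublet step. Cells were kept with at least 300 genes, at most 15% mitochondrial UMIs and a top hashtag of at least 20 counts and 3 times the second, which removes doublets between tumours and leaves those within one. A hash sheet gave each hashtag its tumour and day, and a tumour labelled WT with no group was not used. Cells were clustered with scanpy 1.11.5 (Python 3.11.15, numpy 2.4.6, scipy 1.17.1) and clusters named from marker lists. Counts were summed per tumour, and per class where a tumour had at least 20 cells, and tested with edgeR 4.0.16 in R 4.3.3 (quasi-likelihood, TMM scaling, filterByExpr, adjusted p under 0.05). limma 3.58.1 (voom) and DESeq2 1.42.0 were alternatives. Shares were tested with two-sided exact permutation tests over tumours.

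The named genes are Mif and, by fold change among called genes whose groups did not overlap and whose mean log2 CPM was at least 4, 10 each way in non-immune and in immune-gate cells, and 6 each way in macrophage/monocyte-like cells at a mean log2 CPM of at least 6. Other genes come from pathway lists or were chosen after their values were seen: Ddt, Ccl2, Csf2, H2-K1, Ly6c2, Il12b, Tnfrsf11a, Nfatc1 and those of the T cell-like paragraph. The groups, gene lists and rules were chosen with earlier results of these data known. For genes named by fold change, lack of overlap between the groups follows from the choice. Alternatives were a stricter hashtag call (50 counts and 5 times the second), a stricter cell filter (1000 UMIs and 10% mitochondrial), cells without the 10% with most UMIs, other gates, scalings, filters and tools, tumours or lines left out, and the mixed libraries. Those on named host clusters, both gates, and mixed libraries without a library term were added after seeing the data. Hashtag letters did not pair the tumours: deviations of same-letter tumours correlated between -0.18 and 0.10 across line pairs. The edgeR step was tested on simulated data in which tumours were drawn independently. In the data, tumours of a line correlated at 0.72 in non-immune and 0.34 in immune-gate cells, so the simulation cannot test that part of the design. Intervals and limits on a count of 0 use 3 counts and cover counting error only. Same-line pairs of tumours differed by more than sampling noise.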

Additional observations from a re-analysis of the deposited data

Results flagged for a closer look

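In 9 cases 1 tumour lay far from the other 3 of its group, among 118 groups of 4 examined. Chance gives this in about 1 of 20 groups, so the number of such cases is near that share. Tumour 18A was the low control for the osteoclast-like share (1.42% of immune-gate cells), for Mt3 in immune-gate cells (15.6 CPM) and for Tmem176b in macrophage/monocyte-like cells (41.2 CPM), and the high control for Cd3g in immune-gate cells (27.8 CPM). Tumour 15B was the high control for Axl in macrophage/monocyte-like cells (66.6 CPM). Tumour 19A was the high KO tumour for Cck (14.1 CPM) and Tnn (19.6 CPM) in non-immune cells and for Gzmg in immune-gate cells (5.38 CPM). Tumour 19B was the high KO tumour for the T cell-like share (22.4% of immune-gate cells).

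The KO difference in non-immune cells changed between day 0 and day 10 for 5 of the 20 named genes, by the interaction in edgeR's quasi-likelihood test. Over all 12973 genes tested 2599 (20%) changed, so the number is near that share. On the log2 scale the change, day 10 minus day 0, was 3.75 for H19 (adjusted p = 0.00145), 1.78 for Tspan6 (adjusted p = 0.00305) and -1.35 for Cbr2 (adjusted p = 0.0479). It was -2.62 for Col7a1 (adjusted p = 0.0157) and -1.49 for Twist2 (adjusted p = 0.0174). Without host-named clusters the day 10 differences were 2.02 for H19, -6.61 for Tspan6, 2.05 for Cbr2, 0.06 for Col7a1 and -1.59 for Twist2. The change from day 0 was not tested without those clusters.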

How the results depend on the processing

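The counts of called genes depended on which lines and libraries entered, and the cause was not tested. In non-immune cells the 951 calls became 304 to 913 when 1 tumour was left out, 128 and 433 without control lines 15 and 18, and 4281 and 1862 without KO lines 19 and 24. They became 270.0 with the mixed libraries and the library as a term, 1770.0 without that term, 504 with that term and no host-named clusters, 0 in the mixed libraries alone, 0 with one sum per line, 7 with limma voom and 1766 with DESeq2. Mif in non-immune cells ranged from -3.52 to -2.77 with 1 tumour left out and lost its call without 15A, 15B or 18B. It also lost it, with the same direction, without line 15 (-3.02) or 18 (-3.14), in the mixed libraries alone (-1.43), with one sum per line (-3.13) and with voom (-3.58). In immune-gate cells the 1208 calls became 361 to 2081 with 1 tumour left out, 232 and 1819 without lines 15 and 18, 2063 and 125 without lines 19 and 24, 651 with the gate read after thinning, 321 with the library term, 1873 without it, 527 in the mixed libraries alone, 51 with one sum per line and 502 with voom. In macrophage/monocyte-like cells the 197 calls became 0 to 576, 4 and 448, 451 and 0, 40, 742, 11 and 0 under the same settings but thinning and voom, 587 without a low-count filter, 306 with DESeq2, and 102, 54 and 582 with both gates, both gates with the library term, and both gates with mixed libraries and no term. In T cell-like cells inside the gate, where a single control tumour makes the counts no measure of the groups, the 2 calls became 1 to 10 with 1 tumour left out, 354 and 40 without lines 19 and 24, 79 without a filter, 1 with the stricter hashtag call, 4 without the cells with most UMIs, 19, 23 and 20 with both gates as above, 0 in the mixed libraries alone and 5 with DESeq2. With 1 control tumour, the fits without 18A or line 18, one sum per line and voom were not run there.

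The hashtag letter as a replicate block gave 412 calls in non-immune, 910 in immune-gate, 140 in macrophage/monocyte-like and 1 in T cell-like cells, and Mif -3.08. The letters are only a shared label. The difference in immune share ranged from -15.9 to -8.21 with 1 tumour left out, and it passed without 24B, with the mixed libraries (-12.5) and with the stricter hashtag call (-18.3). The stricter call removed a larger part of the non-immune than of the immune-gate cells, and how far this enters the difference was not tested. The T cell-like (17.9) and osteoclast-like (-15.5) shares passed after adjustment with the mixed libraries, in a test that counts tumours of a line as independent. With 1 mean per line no share can pass. DESeq2 called 1 immune-gate gene departing from days 6 and 16, and one sum per line left 37 departing from day 0. Direction turned for 8 genes with the library term and in the mixed libraries alone, respectively: Ccn2 (-0.54, -0.53), Nes (0.0095, 0.027), Akr1c18 (0.28, 0.26), C1qb (-0.064, -0.083), Gpnmb (-0.31, -0.33), Il10 (-0.22, -0.23), Mcm5 (0.11, 0.086) and Rgs16 (0.35, 0.33), the last 6 in immune-gate cells. Without host-named clusters Col7a1 became 0.064, and with the library term as well Col7a1 became 0.99, Dcn 0.021 and Ptger4 -0.49. Depth limits the sums of 15A most in T cell-like cells, with 11 cells.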

Other observations

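Cytokines that govern osteoclast and macrophage formation were read in the non-immune cells after the osteoclast-like difference had been seen. Tnfsf11 (Rankl, the osteoclast differentiation factor) was 10.5, 12.5, 2.69 and 1.94 CPM in 15A, 15B, 18A and 18B and 1.28, 2.64, 4.82 and 6.32 CPM in 19A, 19B, 24A and 24B. The groups overlapped, with the highest values in line 15 (log2 fold change -0.87, adjusted p = 0.443 in edgeR's quasi-likelihood test). Without host-named clusters, which include T cell-like cells outside the gate, Tnfsf11 was at most 0.381 CPM in every tumour of the single-line libraries. It was among the leading genes of a T cell-like cluster inside the gate, but of no T cell-like cluster outside it. Which of the removed cells carried it was not tested. Its decoy receptor Tnfrsf11b was at most 1.93 CPM in every tumour (adjusted p = 0.661). Csf1, the growth factor of macrophages and osteoclast precursors, was 211 to 245 against 204 to 277 CPM (adjusted p = 0.403), and Il34, the other ligand of its receptor, 18.5 to 27.2 against 14.5 to 20 CPM (adjusted p = 0.201).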
